A study of Rattus norvegicus with 6 samples.

Results

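The mitosis and cytokinesis genes are 43 genes, listed by name with earlier results of these data known, that act when a cell condenses, aligns and separates its chromosomes and then divides. Of these, 39 were found by symbol in the deposited table, on 40 of its 13843 listings, since Ect2 stands on 2 listings. The levels of Bub1b, Cenpe, Kif4a and Anln were not analysed here, while their promoters are among those read below. The 40 listings were described in 6 RNA sequencing libraries of neonatal rat ventricular myocytes (NRVM), which are cells cultured from the lower heart chambers of newborn rats. Phenylephrine (PE), which stimulates alpha-1 adrenergic receptors and makes cultured cardiomyocytes grow, was given to all cultures, and each of the 3 groups had 2 libraries after 3 days. The groups were PE with a control short hairpin RNA (PE), PE and TSA with the control hairpin (PE+TSA), and PE and TSA with a hairpin against JIP1 (PE+TSA+shJIP1). TSA, which the labels do not spell out, usually stands for trichostatin A, a drug that blocks histone deacetylases. JIP1, the product of Mapk8ip1, is a scaffold of the JNK kinase cascade, and the labels call the hairpin group both a knockout and a hairpin. Levels given as with TSA are those of PE+TSA, and levels given as with the hairpin are those of PE+TSA+shJIP1. PE is shared by all cultures, so no group shows these genes without it. Whether the 2 libraries of a group are separate cultures is not in the labels, so p-values rest on a spread that may be technical.

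Most of these genes are silent in resting cells and are transcribed together late in the cell cycle, in G2 and mitosis. Cyclin-dependent kinase 1 with its A- and B-type cyclins starts mitosis, the kinetochore ties chromosomes to the spindle, and the spindle checkpoint holds back the anaphase-promoting complex until every chromosome is attached. The chromosomal passenger complex, the central spindle and an actomyosin ring then divide the cell. Rat cardiomyocytes leave the cell cycle soon after birth, often with a last mitosis without cytokinesis, and cultures from newborn hearts also hold dividing non-myocytes. In bulk libraries, fewer dividing cells and less of each transcript per dividing cell cannot be told apart.

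Many late cell cycle promoters hold a CHR element (cell cycle genes homology region), which the DREAM repressor binds in resting cells and the MuvB complex with B-Myb or FoxM1 binds in dividing cells, often beside CCAAT boxes bound by NF-Y. Promoters were read for both motifs. RefSeq promoters of the assembly GRCr8, from 250 bases before to 50 after the start, were matched for 36 of the 43 genes (37 promoters, 2 of them for Kif2c). The letters TTTGAA or TTCGAA, on either strand, stood in 26 of the 37 promoters (70.3%) against 19.7% of all 33469 promoters of the table. CCAAT, on either strand, stood in 28 of them (75.7%) against 37.5%, and both motifs in 21 (56.8%) against 7.95%. A further form of the element, TTTAAA, stood in 12 (32.4%) against 13.6%. From 100 bases before to 50 after the start, the first form was in 25 (67.6%) against 8.86%. Over the whole stretch, from 250 bases before to 50 after the start, 27 of the 33 matches of this form were counted on the gene strand. TTCGAA reads the same on both strands and was counted there. A match is a stretch of letters and not a measured binding site, and some CCAAT matches overlap a CHR match.

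The 100 bases before the start are printed for the 8 genes described in full below whose CHR letters lie wholly within them. Capitals mark TTTGAA or its other strand TTCAAA, and CCAAT or its other strand ATTGG.
Cdc20, chr5:137255800-137255899, - strand: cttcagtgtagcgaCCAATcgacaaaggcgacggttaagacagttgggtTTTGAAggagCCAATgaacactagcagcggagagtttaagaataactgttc
Prc1, chr1:143659381-143659480, + strand: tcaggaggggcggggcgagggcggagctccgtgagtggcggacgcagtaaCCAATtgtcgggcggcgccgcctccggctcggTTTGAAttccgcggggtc
Top2a, chr10:84473094-84473193, - strand: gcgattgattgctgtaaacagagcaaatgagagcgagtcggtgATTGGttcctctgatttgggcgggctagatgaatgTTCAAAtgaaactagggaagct
Hmmr, chr10:25665216-25665315, - strand: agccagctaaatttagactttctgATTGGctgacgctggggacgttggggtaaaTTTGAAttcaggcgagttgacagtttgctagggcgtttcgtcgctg
Birc5, chr10:103572046-103572145, + strand: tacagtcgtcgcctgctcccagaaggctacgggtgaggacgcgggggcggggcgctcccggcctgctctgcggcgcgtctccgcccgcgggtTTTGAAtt
Cdk1, chr20:19265193-19265292, + strand: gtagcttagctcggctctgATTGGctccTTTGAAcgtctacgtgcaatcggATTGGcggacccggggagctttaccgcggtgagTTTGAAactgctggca
Kif22, chr1:191080879-191080978, - strand: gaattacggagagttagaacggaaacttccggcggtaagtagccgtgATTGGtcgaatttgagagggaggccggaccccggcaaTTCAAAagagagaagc
Mki67, chr1:199952594-199952693, - strand: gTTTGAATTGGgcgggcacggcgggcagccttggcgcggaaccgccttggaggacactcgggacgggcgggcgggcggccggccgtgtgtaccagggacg
Cdc20 has its CHR letters between 2 CCAAT boxes, and Cdk1 has 2 CHR matches and 2 CCAAT matches. Birc5 has its CHR letters 8 bases before the start and no CCAAT box in these 100 bases. In Mki67 the CHR letters run into a CCAAT box at the far end of the stretch.

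**Figure D1:**
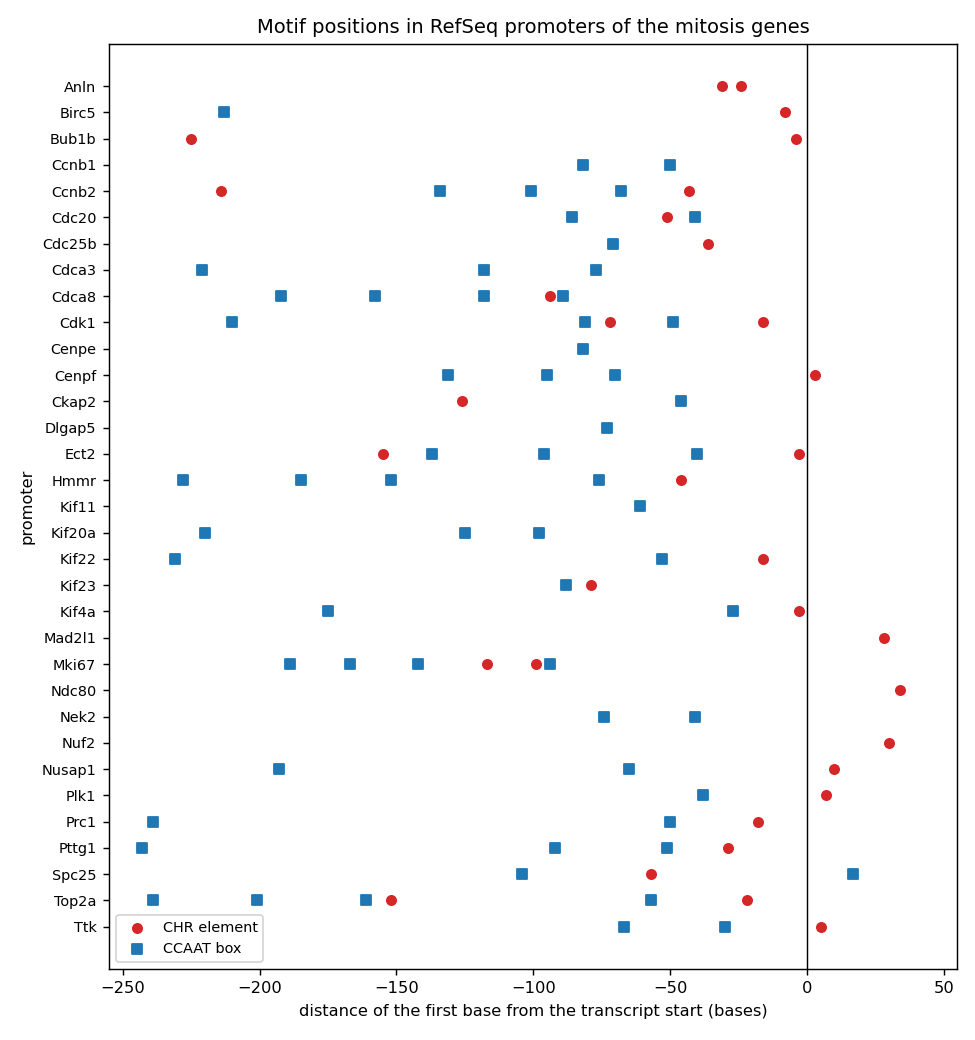
Positions of CHR letters (red circles) and CCAAT boxes (blue squares) in the 33 promoters that hold either, as the distance of the first base from the transcript start in bases. Most CHR matches lie within 100 bases of the start, in 25 of the 37 promoters searched.

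Values are FPKM, a read density per transcript length and library size, so levels can be compared between genes. Of the 13843 listings, 3667 were at 0 in PE replicate 2 against 1407 to 1837 in the other 5 libraries. Among listings between 0.5 and 3 FPKM in all other libraries, 20.3% were at 0 in PE replicate 2 and 0.333% to 0.955% in each of the others. Mapk8ip1, the targeted gene, was at 3.77 and 4.39 FPKM in the PE libraries, at 14.6 and 17.9 with TSA, and at 1.8 and 3.65 with TSA and the hairpin. Both hairpin libraries were below all others for it, and the hairpin difference was -2.25 ± 0.34 (SE) on the log2(FPKM + 1) scale (limma adjusted p = 0.077).

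The median level of the mitosis and cytokinesis genes was highest in PE, lower in PE+TSA and lowest in PE+TSA+shJIP1, but single genes departed from that order and no member passed the test at either step. The median log2(FPKM + 1) over the 40 listings was 3.86 and 2.58 in the PE libraries, 2.37 and 1.76 with TSA, and 1.42 and 1.07 with the hairpin as well. No library of one group overlapped another group in this median, although the lower PE library was close to the higher PE+TSA library. Their summed level did not follow this order, being 1620 and 257 FPKM for PE, 647 and 694 with TSA, then 80.5 and 72.5 with the hairpin. In the sum, PE replicate 2 thus lay below both PE+TSA libraries. Kif22 and Cdk1 weighed heavily in that departure. With TSA they gave 241 and 183 of the 647 FPKM, then 238 and 296 of the 694. Of the 257 FPKM of PE replicate 2 they gave only 11.3 and 3.56. Kif22 alone gave 879 of the 1620 FPKM of PE replicate 1. PE replicate 1 held the highest value for 39 of the 40 listings, where this library was highest for 17.1% of all 13843 listings, and Cdk1 was the exception. PE replicate 2 was below PE replicate 1 for all 40 listings, and 58.6% of all 13843 listings lay that way. In all, 5 listings stood at 0 in PE replicate 2: Ccnb2, Cdca3, Pttg1, Ttk and listing 1 of Ect2. The medians against PE are therefore also given with each PE library left out in turn.

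**Figure D2:**
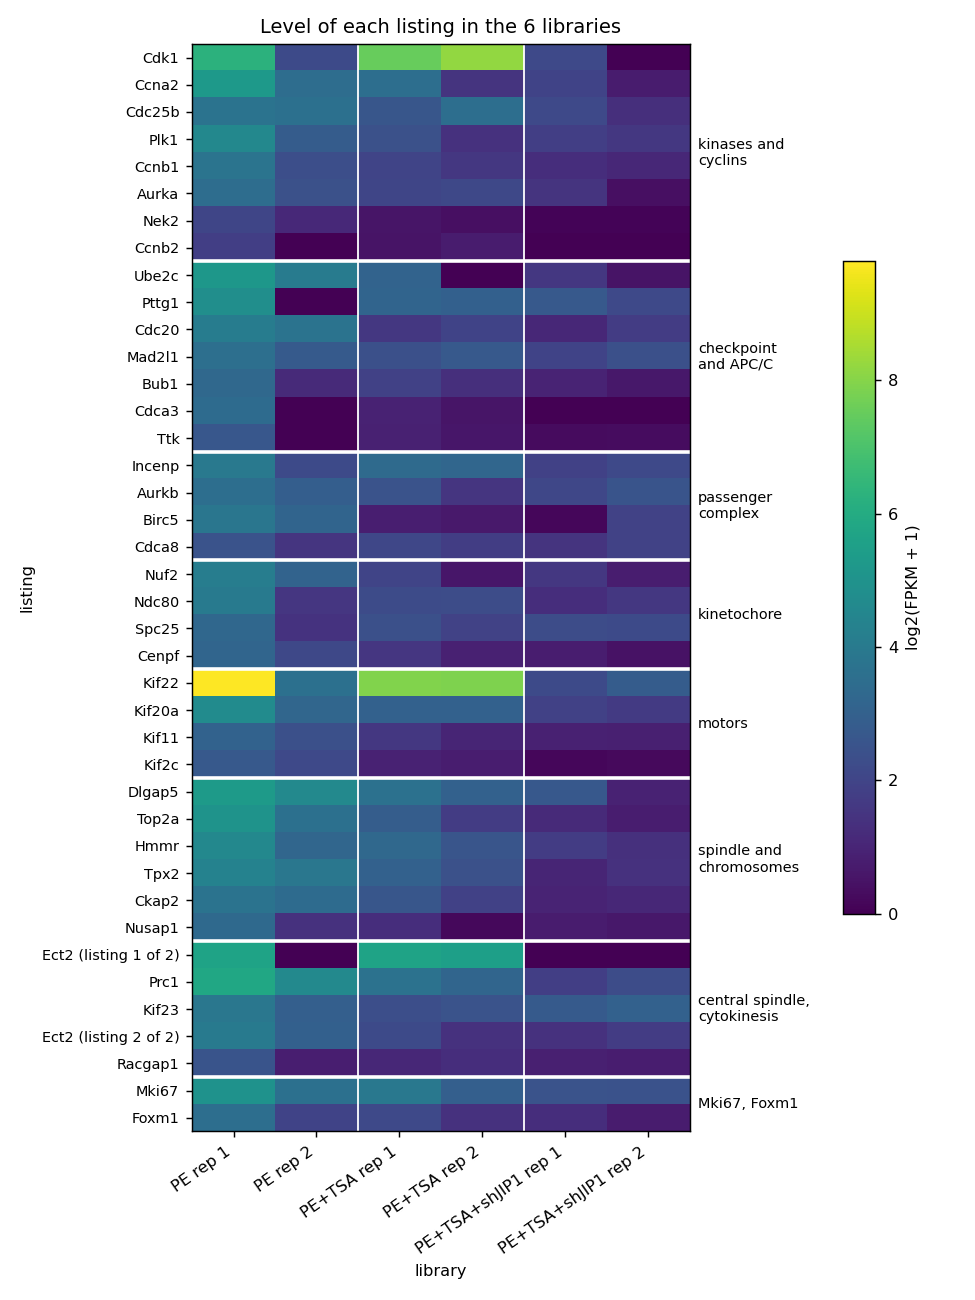
Level of each of the 40 listings, as log2(FPKM + 1) by colour, in the 6 libraries (columns), with rows grouped by role and ordered by mean FPKM. PE replicate 1 is the brightest column for 39 listings, and Cdk1, Kif22 and listing 1 of Ect2 are bright in PE replicate 1 and both PE+TSA libraries and dark in the other 3.

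The libraries of a group were far apart in PE. Over the 38 listings tested, the median absolute difference between the PE replicates was 1.35 on the log2 scale, against 0.39 for all listings tested. It was 0.53 with TSA and 0.37 in PE+TSA+shJIP1, against 0.30 for all listings tested in each. The median absolute difference between group means was 1.26 for PE+TSA against PE, so smaller than the replicate difference in PE. It was 0.69 for the hairpin group against PE+TSA and 1.97 for the hairpin group against PE. Over all listings tested, the corresponding medians were smaller, at 0.4 with TSA, 0.35 with the hairpin and 0.54 with both. The group difference exceeded the replicate difference of both groups for 15 of the 38 with TSA (39.5%, against 35.9% of all listings tested). It did so for 21 with the hairpin (55.3% against 37.8%) and for 24 with both (63.2% against 47.1%). For TSA this share was thus close to that of all listings.

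**Figure D3:**
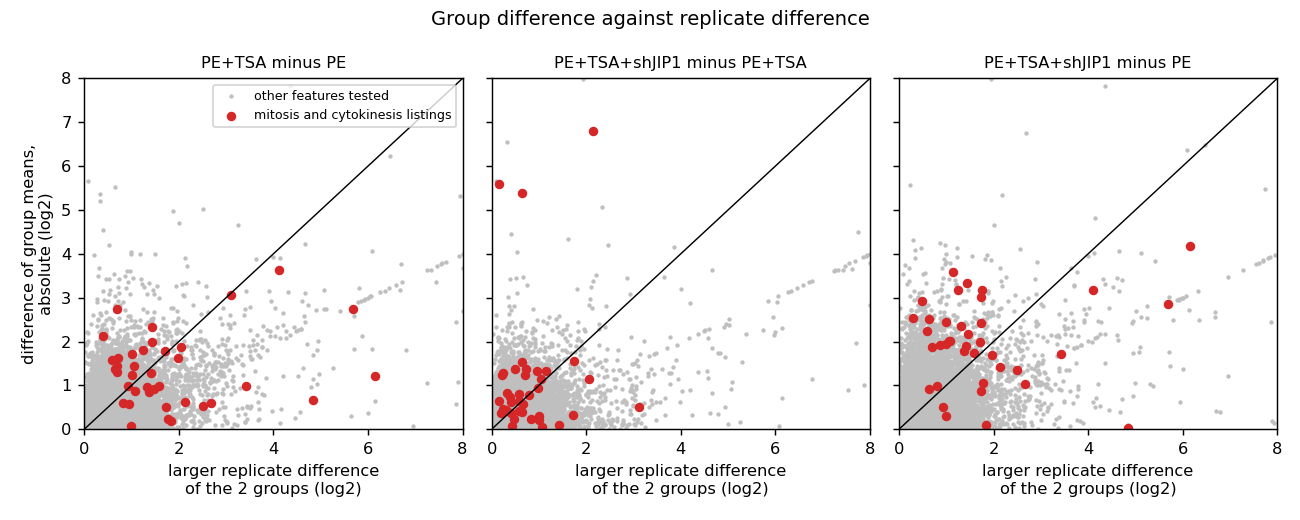
Absolute difference of group means against the larger replicate difference of the 2 groups compared, both on the log2(FPKM + 1) scale, for the 38 mitosis and cytokinesis listings tested (red) and the other listings tested (grey). Points above the line differ between groups by more than between replicates; axes end at 8, beyond which lie 28, 42 and 34 grey points in the 3 panels.

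Tests used limma on log2(FPKM + 1) over the 10359 listings whose mean reached 1 FPKM, which 38 of the 40 passed. Ccnb2 (mean 0.6 FPKM) and Nek2 (0.873) did not. That mean includes PE, so a listing can reach the filter through the group where it is high. Kif2c, Ttk and Cdca3 did so, being below 1 FPKM in every library outside PE. Counts against PE among the 38 are not free of that choice. With TSA none of the 38 passed an adjusted p of 0.05, where 0.811% of all listings tested did. At an unadjusted p of 0.05, 17 were lower and 1 higher, where 7.1% of all listings were lower and 11.6% higher. Over all 40 listings 35 were lower with TSA and 5 higher, namely Cdk1, Kif22, listing 1 of Ect2, Incenp and Pttg1. Of all 13843 listings 38.7% were lower. The median of the 40 was -0.98, against a median of 0.09 for all 13843 listings. The PE+TSA libraries lay below both PE libraries for 22 of the 38 tested, against 21.1% of all listings. Without PE replicate 1 the median was -0.55 over 34 listings, of which 25 were lower. The others of the 38 reached the filter of 1 FPKM only with that library. Without PE replicate 2 the median was -1.77 over 38 listings, of which 37 were lower.

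The hairpin in the presence of TSA also gave no member past the threshold, where 0.29% of all listings passed. At an unadjusted p of 0.05, 10 were lower and 0 higher, against 8.94% and 5.93% of all listings. In all, 36 of 40 listings were lower with the hairpin and 4 higher (Kif23, Birc5, Aurkb and Spc25), and the median was -0.65. Of all 13843 listings 48.8% were lower, with a median of 0.00. The hairpin libraries lay below both PE+TSA libraries for 26 of the 38 tested, against 25.1% of all listings. PE+TSA is the baseline of this comparison and the treated group of the first, so the 2 sets of values share those libraries.

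Against PE alone, the hairpin group was lower for 39 of 40 listings (median -1.93), where 40.2% of all 13843 listings were lower (median 0.08). By limma's adjusted p, 10 of the 38 tested fell (26.3%), where 4.16% of all listings fell. The 10 were Prc1, Tpx2, Top2a, Dlgap5, Ckap2, Cdc20, Hmmr, Kif2c, Kif20a and Kif11, and none of the 38 rose, where 4.11% of all listings did. The hairpin libraries lay below both PE libraries for 29 of the 38, against 26.7% of all listings. The number of calls changed with the libraries used, for these genes and over all listings. None of the 10 passed in every fit with 1 library left out. The median against PE was -1.44 over 34 listings without PE replicate 1 and -2.61 over 38 without PE replicate 2. It stayed between -2.02 and -1.86 when a library of another group was left out.

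In 13 of the 38 the 3 groups stood in order without overlap, PE above PE+TSA above PE+TSA+shJIP1, which 5.69% of all listings did. These were Aurka, Ccnb1, Cdc25b, Cenpf, Ckap2, Dlgap5, Kif11, Kif20a, Kif2c, Mad2l1, Prc1, Top2a and Tpx2. Below the level filter, Nek2 had the same order. Kif2c, among the 13, reached the filter through PE. Without the filter, 14 of the 40 listings had this order, against 611 of all 13843 listings.

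**Figure D4:**
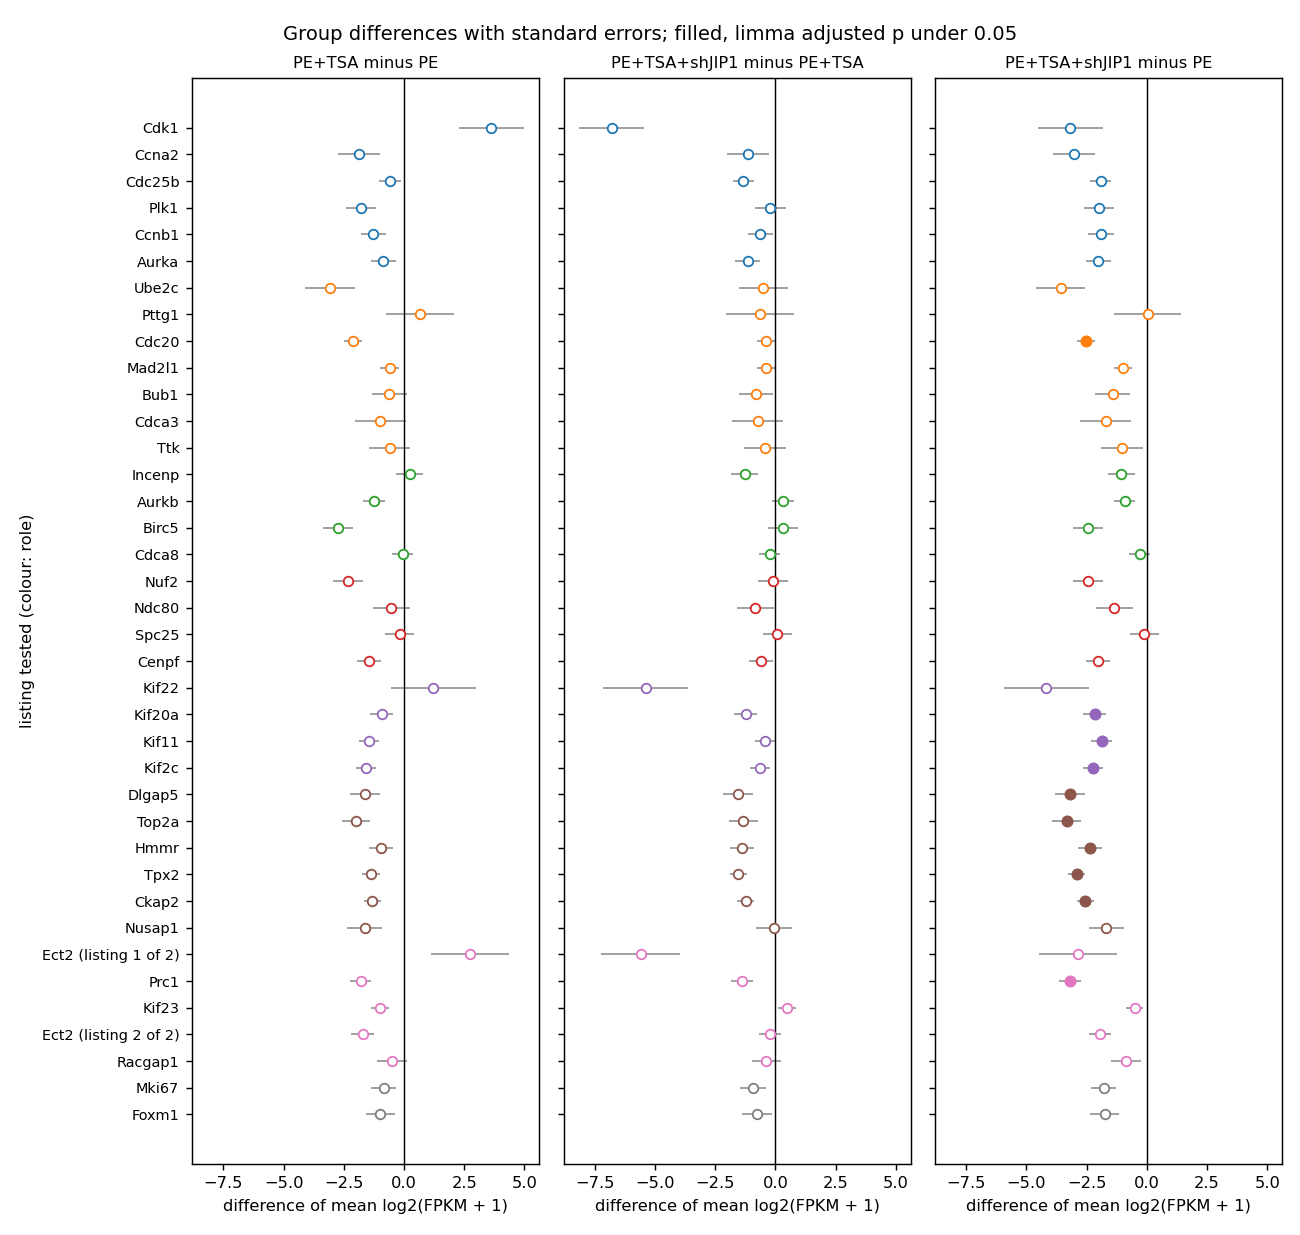
Difference of group means on the log2(FPKM + 1) scale with its standard error for the 38 listings tested in the 3 comparisons, coloured by role, filled where limma's adjusted p was under 0.05. Only the right panel has filled points, 10 of them, all below 0.

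Among the mitotic kinases and cyclins, 7 of 8 were lower with TSA and all 8 with the hairpin, and none passed in any comparison. Plk1, the polo-like kinase that drives spindle assembly and mitotic exit, was at 22.5 and 6.17 FPKM in PE, 4.33 and 1.66 with TSA, and 2.53 and 2 with the hairpin. The PE libraries were above all others, while the other groups overlapped (log2 difference with TSA -1.78 ± 0.63, limma adjusted p = 0.212). Ccna2, cyclin A2, ran from 36.9 and 10.4 in PE to 2.93 and 0.686 FPKM in the hairpin libraries (-3.01 ± 0.87, adjusted p = 0.0792). Ccnb1, cyclin B1, was at 12.7 and 4.16, then 3 and 2, then 1.41 and 1.1 FPKM. Aurka, the spindle pole kinase, was at 10.2 and 4.31, then 3.14 and 3.36, then 1.74 and 0.336. Cdc25b, a phosphatase that activates Cdk1, was at 12.1 and 11.1 in PE, 5.06 and 10.7 with TSA and 3.51 and 1.48 with the hairpin, so 1 PE+TSA library stood beside the PE pair. Nek2, a centrosome kinase, and Ccnb2, cyclin B2, were at or below 3.08 FPKM in every library.

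Cdk1 itself did not follow its cyclins. It was at 77.7 and 3.56 FPKM in PE, 183 and 296 with TSA, and 3.41 and 0 in the hairpin libraries. The PE+TSA libraries were above all others, and PE replicate 2 stood with the hairpin libraries. The log2 difference was 3.63 ± 1.34 with TSA (limma adjusted p = 0.226) and -6.80 ± 1.34 with the hairpin (adjusted p = 0.111). Kif22, a chromosome-arm kinesin that pushes chromosomes to the metaphase plate, had the same split of libraries, with 879 and 11.3, then 241 and 238, then 3.61 and 6.23 FPKM. Its hairpin difference was -5.38 ± 1.76 (adjusted p = 0.243). Listing 1 of Ect2 was at 50.7 and 0 in PE, 49.9 and 44.4 with TSA and 0 in both hairpin libraries (-5.59 ± 1.63, adjusted p = 0.206). Listing 2 of the same gene was at 15 and 7.01, then 3.62 and 1.6, then 1.62 and 2.34 FPKM, so the 2 listings of Ect2 went different ways. The table does not say which transcripts a listing covers, and the reason for the split was not tested. With only the PE+TSA and hairpin libraries in the fit, Kif22 and listing 1 of Ect2 passed for the hairpin, both lower, where 8 of all listings passed. For TSA, Kif22 was at 4.29 and listing 1 of Ect2 at 5.59 without PE replicate 1. Without PE replicate 2 they were at -1.87 and -0.11.

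In the spindle checkpoint and anaphase-promoting complex group, 6 of 7 listings were lower with TSA and all 7 with the hairpin. Cdc20, the activator of the anaphase-promoting complex, fell in the hairpin group against PE (-2.52 ± 0.37, limma adjusted p = 0.0194). Its value was 16.4 and 12.3 FPKM in PE, 2.04 and 2.95 with TSA, and 1.13 and 2.31 with the hairpin. Both PE libraries were far above the other 4, which overlapped, and the hairpin difference was only -0.39 ± 0.37 (adjusted p = 0.683). Ube2c, the ubiquitin-conjugating enzyme of that complex, stood at 35.5 and 15.7 in PE, 7.64 and 0 with TSA, and 2 and 0.418 with the hairpin (with TSA -3.07 ± 1.02, adjusted p = 0.195). The replicate difference in PE+TSA was as large as the group difference for it. Bub1, a checkpoint kinase, was at 8.79 and 1.22, then 2.72 and 1.5, then 0.978 and 0.545 FPKM, so PE replicate 2 lay below both PE+TSA libraries. Mad2l1, which binds Cdc20 while the checkpoint is on, went from 10.8 and 5.74 in PE to 2.94 and 4.21 with the hairpin. Pttg1, securin, which holds separase inactive until anaphase, was at 27.7 and 0 in PE and between 3.47 and 7.93 in the other 4 libraries. Ttk, another checkpoint kinase, and Cdca3, a trigger of mitotic entry, were at 5.37 and 9.73 FPKM in PE replicate 1, at 0 in PE replicate 2 and at most 0.899 elsewhere.

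The chromosomal passenger complex, which corrects attachments and later marks the division site, was mixed. Birc5, survivin, was at 13.2 and 7.79 FPKM in PE, 0.746 and 0.584 with TSA and 0.138 and 2.77 with the hairpin. All 4 TSA-treated libraries were below both PE libraries (with TSA -2.75 ± 0.62, limma adjusted p = 0.116). Incenp, its scaffold, was instead at 14.7 and 3.56, then 9.54 and 8.31, then 2.75 and 3.45 FPKM. Its PE libraries lay on both sides of PE+TSA, and the hairpin libraries were below all others (hairpin -1.28 ± 0.57, adjusted p = 0.37). Aurkb, its kinase, was at 10.7 and 6.57, then 4.64 and 1.82, then 3.27 and 4.75. Cdca8, borealin, stayed between 1.75 and 4.65 FPKM with overlapping groups.

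All 4 kinetochore listings were lower with TSA, and none passed. Nuf2, a subunit of the microtubule-binding Ndc80 complex, had 16.5 and 7.75 FPKM in PE, 3.02 and 0.498 with TSA, and 2 and 0.739 with the hairpin (with TSA -2.34 ± 0.62, limma adjusted p = 0.143). Both PE libraries were above the other 4. Its partner Ndc80 was at 15.4 and 1.89 in PE and 1.41 to 3.82 in the other libraries, so 1 PE library lay among them. A further subunit, Spc25, differed little between groups (with TSA -0.18 ± 0.61). Cenpf, an outer kinetochore protein, was at 8.13 and 3.4, then 1.94 and 0.853, then 0.732 and 0.407 FPKM, with no overlap (hairpin -0.58 ± 0.50, adjusted p = 0.646).

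Of the motors, 3 fell in the hairpin group against PE. Kif2c, a kinesin that takes microtubules apart at centromeres, was at 5.64 and 3.43 FPKM in PE, 0.911 and 0.707 with TSA and 0.115 and 0.183 with the hairpin (-2.24 ± 0.41, limma adjusted p = 0.0317). Kif20a, which brings passenger proteins to the central spindle, was at 25 and 8.37, then 7.12 and 7.25, then 2.74 and 2.19 (-2.17 ± 0.49, adjusted p = 0.0484). Kif11, which separates the spindle poles, was at 7.54 and 4.25, then 1.98 and 1.01, then 0.844 and 0.8 (-1.88 ± 0.42, adjusted p = 0.0482). The 3 groups did not overlap for any of these 3 motors. On the log2(FPKM + 1) scale the low levels of Kif2c and Kif11 understate their ratios.

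Spindle assembly and chromosome structure was the role with most calls, 5 of 6 listings in the hairpin group against PE. Tpx2, which activates Aurka on spindle microtubules, had the smallest p of all members there (-2.91 ± 0.36, limma adjusted p = 0.0157). It was at 19.4 and 13.6 FPKM in PE, 7.32 and 4.33 with TSA and 1.01 and 1.62 with the hairpin. Ckap2, a microtubule-stabilizing protein, was at 12.1 and 9.7, then 5.06 and 2.73, then 0.954 and 1.1 FPKM (-2.55 ± 0.36, adjusted p = 0.0189). For both, the replicates of each group were closer to each other on the log2 scale than to any other group. Top2a, the topoisomerase that untangles sister chromatids, was at 31.6 and 11.1, then 6.39 and 2.34, then 1.27 and 0.719 (-3.33 ± 0.59, adjusted p = 0.0289). Dlgap5, a stabilizer of kinetochore fibres, was at 39.4 and 23.5, then 11.6 and 7.31, then 5.39 and 0.899 (-3.18 ± 0.61, adjusted p = 0.0337). Hmmr, a spindle pole protein and hyaluronan receptor, was at 22.6 and 8.46, then 8.83 and 4.96, then 2.35 and 1.58 (-2.35 ± 0.51, adjusted p = 0.0442). PE overlapped PE+TSA for Hmmr, and the hairpin libraries were below both. Nusap1, a spindle bundling protein, was at 9.28 and 1.62 in PE and at or below 1.42 in the other 4, without a call.

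For the central spindle and cytokinesis, Prc1, which bundles the overlapping microtubules between the separating chromosomes, fell in the hairpin group against PE. It was at 56.4 and 23.3 FPKM in PE, 11.8 and 8.05 with TSA and 2.55 and 3.78 with the hairpin (-3.18 ± 0.45 against PE, limma adjusted p = 0.0194). Kif23, the motor of the centralspindlin complex with Racgap1, was the 1 member of the 38 whose hairpin libraries were both above PE+TSA, as they were for 24.9% of all listings tested. It was at 13.8 and 6.75 in PE, 4.16 and 4.66 with TSA, and 5.91 and 7.15 with the hairpin (0.47 ± 0.37 with the hairpin, adjusted p = 0.607). Racgap1 was at 4.89 FPKM in PE replicate 1 and at 0.721 to 1.45 in the other 5 libraries. Mki67, the coat protein of mitotic chromosomes used as a proliferation marker, was at 30.3 and 11.1, then 14.1 and 6.7, then 4.72 and 4.54 FPKM. The hairpin libraries were below all others for it, while PE and PE+TSA overlapped (hairpin -0.94 ± 0.53, adjusted p = 0.473). Foxm1, the transcription factor that drives many of these genes, was at 10.7 and 2.89, then 3.5 and 1.61, then 1.42 and 0.66 FPKM (-1.75 ± 0.61 against PE, adjusted p = 0.118).

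Of 6 further lists from the pathway, 80 listings were found and 76 tested. None passed with TSA or with the hairpin, and in the hairpin group against PE 7 fell (9.21%, where 4.16% of all listings fell) and 3 rose, a share near the 4.11% of all listings that rose. Their medians were -0.17, -0.23 and -0.43 in the 3 comparisons, closer to 0 than those of the mitosis and cytokinesis genes; the difference between the sets was not tested. Subunits of the anaphase-promoting complex, which cells keep outside mitosis too, had medians of 0.14, 0.10 and 0.18 over 14 listings. Further kinetochore and centromere genes were lower for 16 of 18 listings with TSA (median -0.50), and against PE Cenpm and Ska1 fell and Zwint rose in the hairpin group. Zwint, which recruits the RZZ checkpoint complex, stood at 77.1 and 64.8 FPKM in PE and rose to 164 and 162 in the hairpin libraries (1.19 ± 0.20, limma adjusted p = 0.026). Among mitotic entry genes Cks2, a Cdk1 subunit, and Gtse1 fell. Of the DREAM and MuvB regulators, Mybl2, which encodes B-Myb, fell from 7.51 and 4.99 in PE to 0.797 and 0.5 with the hairpin (-2.12 ± 0.41, adjusted p = 0.035) and Tfdp2, an E2F partner, rose. In the abscission list Cit, the citron kinase of the midbody, and Pdcd6ip, an adaptor of the abscission machinery, fell. The last call was a rise of Anapc13, a subunit of the anaphase-promoting complex. Cohesin and condensin genes had a median of -0.45 against PE over 13 listings with no call. In the same comparison the median was -0.69 for the further kinetochore and centromere genes and -0.78 for the mitotic entry genes. It was -0.23 for the abscission list and 0.04 for the DREAM and MuvB regulators, beside -1.93 for the mitosis and cytokinesis genes.

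Markers of the cell types that such cultures hold were read beside these values. Cardiomyocyte markers were abundant, with a summed level of 14500 to 18000 FPKM in PE, 4580 to 8850 with TSA and 4850 to 8770 with the hairpin, and all 9 listed markers were lower with TSA. Smooth muscle and pericyte markers summed to 1360 to 1670 in PE, 267 to 411 with TSA and 501 to 520 with the hairpin, and 7 of 8 were lower with TSA. Fibroblast markers summed to 1490 to 2380, then 1020 to 1550, then 1240 to 1530 FPKM, with 7 of 10 lower with TSA and 3 of 10 lower with the hairpin. Col1a2 was at 0 in 5 of the 6 libraries although Col1a1 was at 284 FPKM or more. Endothelial markers summed to 57.8 to 70.3, 42.3 to 77.4 and 29.5 to 42, with 3 of 10 lower with TSA, and Emcn was at 0 in 4 libraries. Macrophage markers summed to 12.1 to 16.7, 7.27 to 13.2 and 5.24 to 8.22, with 5 of 7 lower with TSA, and C1qa was at 0 in 5 libraries. In the hairpin group against PE, the comparison that holds the calls of the mitosis genes, all 9 cardiomyocyte markers were lower without overlap (median -1.45), and Myl3 and Tnni3 fell. Of the smooth muscle and pericyte markers 6 of 8 were lower (median -0.89), and 3 of the 7 tested fell (Acta2, Cspg4 and Myh11), a share of 42.9% beside the 26.3% of the mitosis and cytokinesis genes. Of the fibroblast markers 7 of 10 were lower (median -0.50), Dcn fell and Thy1 rose, and no endothelial or macrophage marker passed. Between the PE libraries, all fibroblast markers but Thy1 and Col1a2 were higher in replicate 2, where every mitosis and cytokinesis listing was lower. The part of cell makeup in the differences of the mitosis genes was not tested.

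**Figure D5:**
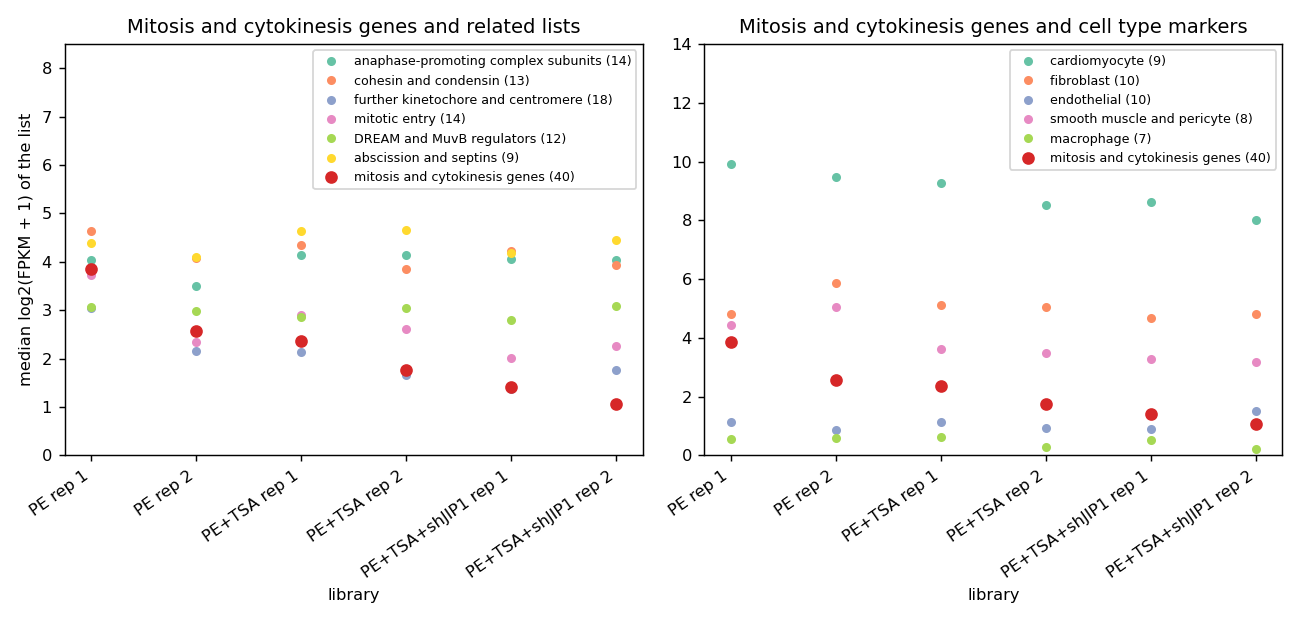
Median log2(FPKM + 1) of the mitosis and cytokinesis genes (large red points, 40 listings) in each library, beside 6 further lists of the pathway (left) and 5 lists of cell type markers (right), with the number of listings in parentheses. The red points go from 3.86 in PE replicate 1 to 1.07 in the second hairpin library, while the anaphase-promoting complex subunits stay between 3.5 and 4.14.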

How the data were processed

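RNA of 6 libraries in 3 groups was measured by sequencing. The authors deposited 1 table of FPKM values with a column per library. Per the submitters' processing notes, Cufflinks and rn6 were used, with no role or version given. The header names no unit. Aligner, annotation, filters and strand were not given in the sources used, so reads of overlapping genes or paralogs cannot be told apart. FPKM keeps no total counts, so depth is unknown and counting intervals were not computed.

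Every listing was kept. Listings whose 6-library mean reached 1 FPKM (10359 of 13843) were tested on log2(FPKM + 1) with limma 3.58.1 in R 4.3.3, with 1 mean per group, all 6 libraries and a prior variance that follows the mean (3 residual and 3.27 prior degrees of freedom). P-values are two-sided, adjusted by Benjamini and Hochberg over all listings tested within a comparison, with a threshold of 0.05. No list was tested as a set. All members are named under 8 roles, with full values for the highest level, the smallest p with TSA and with the hairpin in each role, and any call. The members and lists were chosen with earlier results of these data known. Promoters are those of RefSeq (GRCr8), used for sequence only. Alternatives were another pseudocount, filters, scalings, a fit of 2 groups, 1 prior variance, a replicate block and leaving out each library.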

Additional observations from a re-analysis of the deposited data

How the results depend on the processing

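Over 14 alternative settings and 1 added after seeing the data (without Cdk1, Kif22 and listing 1 of Ect2), the median difference of the mitosis and cytokinesis genes was below 0 in all 3 comparisons. Against PE, the hairpin group's median was -2.58 with a pseudocount of 0.1 (hairpin against PE+TSA -1.15). Calls against PE were 3 with no filter, where 374 of 13843 listings passed. With only the 2 groups in the fit they were 0, where 4 of all listings passed. Such a fit gave 2 calls for the hairpin against PE+TSA, where 8 of all listings passed. With a filter of 5 FPKM the hairpin median was -1.23 and 15 of the 23 listings left were lower without overlap. The median over all 7786 listings under that filter was -0.004. Their share lower without overlap was not computed, so the 15 of 23 cannot be set against all listings. With a pseudocount of 0.1, Ube2c was 0.25 higher with the hairpin. Whether same-numbered libraries belong together is not in the labels. Correlations of same-numbered deviations over all listings tested were 0.07, 0.04 and 0.12, which cannot settle it. Replicate 1 was above replicate 2 for 40 of the 40 listings in PE, 30 with TSA and 21 with the hairpin. With a replicate block 16 of 38 members passed against PE, all lower, where 1063 of 10359 listings passed in either direction.

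Leaving out 1 library at a time, which leaves a group with 1 library assumed to vary like the others, gave medians of -1.77 to -0.55 with TSA, -0.88 to -0.53 with the hairpin and -2.61 to -1.44 against PE. The number of calls also varied between these fits, for the members and over all listings. Listings lower without overlap ran from 21 to 37, 23 to 34 and 28 to 38, of 34 to 39 listings tested. Groups of 1 library separate more easily for any gene. These counts therefore cannot be set against the 22, 26 and 29 found with all libraries. With TSA, Bub1 ran from -1.68 to 0.46, listing 1 of Ect2 from -0.11 to 5.59, Incenp from -0.66 to 1.12 and Kif22 from -1.87 to 4.29. With the hairpin, Birc5 ran from -0.55 to 1.18, Nuf2 from -0.81 to 0.61, Plk1 from -0.71 to 0.29 and Ube2c from -2.07 to 1.04. Against PE, listing 1 of Ect2 ran from -5.69 to 0. No member called against PE passed in all 14 alternatives; Ckap2 and Tpx2 passed in 10, Cdc20 and Prc1 in 8, and the other 6 in 4 to 6.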
